A study of Homo sapiens with 53 samples.

Results

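MYO1C encodes a class I unconventional myosin, a single-headed motor that links actin filaments to membranes, and an isoform of it is known from the nucleus. Peaks were taken as members where a deposited interval overlapped the 60 kb of chromosome 17 from 1350000 to 1410000 (hg19), which holds MYO1C at 1367511 to 1396106. The members are 124 of the 920930 rows in 10 peak lists, and they merge into 94 sites. The window was chosen from these lists, because it holds a site at the top of the TET1 and TET2 lists, so the values of that site are a description. The lists come from chromatin immunoprecipitation and sequencing (ChIP-seq) of HEK293T cells, a human embryonic kidney line. Cells received 30 µM of the compound BPK-25 or its solvent DMSO for 72 h. An antibody against Flag was used in 3 edited lines derived from HEK293T that carry Flag-tagged TET1, TET2 or TET3, and antibodies against MBD3 or CTCF in the parental cells. Of the 10 groups of immunoprecipitates, TET2 under DMSO is represented by 2 samples here and the other 9 by 3, and by the labels a group's replicates went together into 1 list (that of TET2 under DMSO is named for 3 replicates). No value below therefore has a spread between replicates, and no difference between treatments could be tested.

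TET1, TET2 and TET3 are dioxygenases that oxidise 5-methylcytosine, mainly at CpG dinucleotides, as a step towards loss of DNA methylation. MBD3 is a subunit of the NuRD complex, which remodels nucleosomes and deacetylates histones and is often found at active promoters and enhancers. CTCF is the zinc-finger protein of insulators and chromatin loop anchors, and its binding to many sites is sensitive to CpG methylation.

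The RefSeq table used here lists 4 transcription starts for MYO1C on the minus strand of GRCh38.p14, spread over 7285 bp at the high-coordinate end of the gene. Summits within 10 kb of that end, on either side of it, made up 16 of 34 MBD3 sites of the window under BPK-25 and 9 of 14 under DMSO, and 15 of 31 CTCF sites under BPK-25 and 5 of 7 under DMSO. Those inside the gene numbered 10 under BPK-25 and 9 under DMSO for MBD3, and 8 and 5 for CTCF. The stretch counted, 10 kb on each side of the end, is itself a large part of the 60 kb window. Whether sites cluster near the starts was not tested. The promoters are shown because CpG content differs widely between these starts. Each runs from 250 bases before to 50 after its start, 5′ to 3′ on the minus strand, with CpG in capitals. The first is chr17:1492637-1492936 and the second chr17:1491630-1491929, both GRCh38.p14. Their positions were not carried over to hg19, so no site below was assigned to a single start.
First start: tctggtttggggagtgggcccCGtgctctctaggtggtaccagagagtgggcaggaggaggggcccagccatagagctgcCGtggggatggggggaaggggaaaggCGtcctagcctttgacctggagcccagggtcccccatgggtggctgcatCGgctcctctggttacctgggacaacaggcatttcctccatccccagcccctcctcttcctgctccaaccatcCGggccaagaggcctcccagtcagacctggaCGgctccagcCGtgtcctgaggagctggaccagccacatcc
Second start: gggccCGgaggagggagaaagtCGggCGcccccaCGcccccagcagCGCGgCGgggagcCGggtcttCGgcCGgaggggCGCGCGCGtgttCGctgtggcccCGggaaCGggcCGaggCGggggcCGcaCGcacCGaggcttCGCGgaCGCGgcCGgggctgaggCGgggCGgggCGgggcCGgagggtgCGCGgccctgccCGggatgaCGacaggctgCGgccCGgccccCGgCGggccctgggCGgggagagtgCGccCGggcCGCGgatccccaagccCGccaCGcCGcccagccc
The first promoter holds 7 CpG, and 63.2% of the 35116 promoters in the RefSeq table hold at least as many. The second holds 47, a number reached by 2.41% of promoters. The remaining starts, 6926 and 7285 bp downstream of the first, hold 38 and 39 CpG, reached by 9.91% and 8.71%.

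The strongest TET site lay towards the other end of the gene. Its TET2 summit under DMSO was at 1372685 (hg19), inside MYO1C, 23421 bp from the high-coordinate end where transcription starts and 5174 bp from the low-coordinate end. Exons and introns of hg19 were not used here, so the site was not placed in either. It was listed in 6 of the 10 lists, and 5 of these were TET lists. The summits were at 1372682 for TET1 under DMSO, at 1372682 for TET2 under BPK-25 and 1372685 under DMSO, and at 1372677 for TET3 under BPK-25 and 1372676 under DMSO. These 5 summits, from 3 separately tagged lines and the same antibody against Flag, fell within 9 bp. The MBD3 summit under DMSO, 1372701, lay 16 bp from the TET2 summit. The intervals were 501 bp wide for TET1 under DMSO, 323 bp for TET2 under BPK-25 and 459 bp under DMSO, and 418 bp for TET3 under BPK-25 and 806 bp under DMSO. The widest, that of TET3 under DMSO, ran from 1372267 to 1373072 and held all the others.

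**Figure D1:**
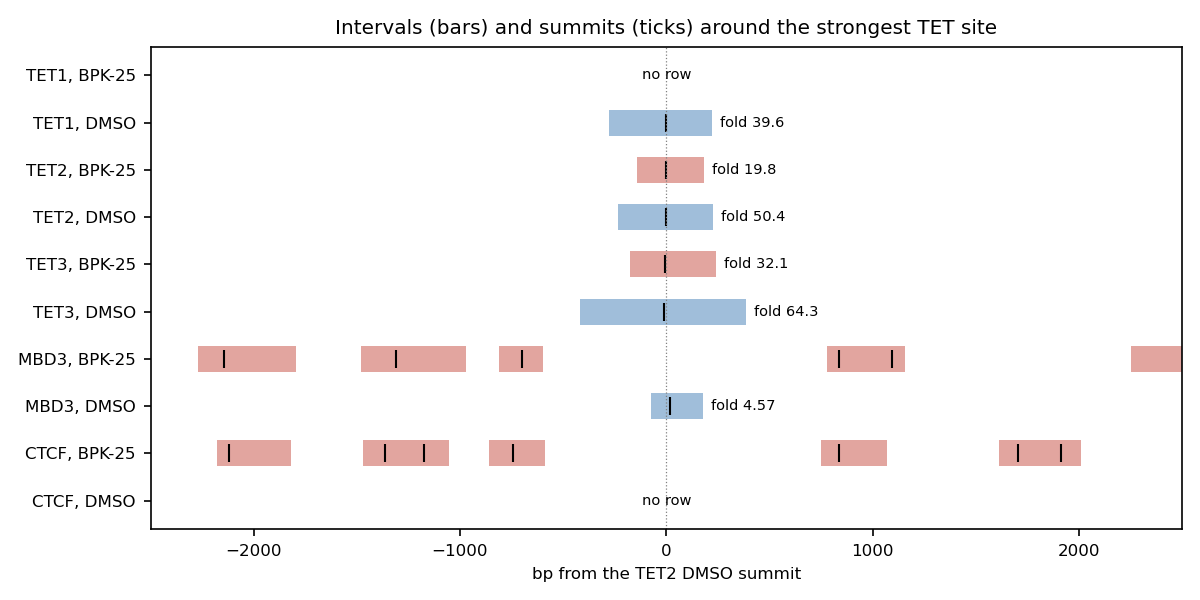
Intervals (bars) and summits (black ticks) of the 10 lists around the TET2 DMSO summit, which is at 0 on the horizontal axis in bp; red is BPK-25 and blue DMSO, and fold enrichment is printed at the shared site. The 5 TET summits and the DMSO MBD3 summit lie close together at 0, while the BPK-25 MBD3 and CTCF intervals lie on either side.

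Fold enrichment is the authors' ratio of fragments at the summit to the local background, with 1 added to each. TET1, which carries a CXXC zinc finger that binds CpG-rich DNA, had no row at the site under BPK-25 and a fold enrichment of 39.6 under DMSO. TET2, which has no CXXC domain of its own, had 19.8 under BPK-25 and 50.4 under DMSO. TET3 had 32.1 under BPK-25 and 64.3 under DMSO. All 3 tagged lines thus had a high value there under DMSO, and each had a lower value or no row under BPK-25. The TET lists all rest on the antibody against Flag, and the samples hold no Flag immunoprecipitate of untagged cells. Whether the signal at the site depends on the tag was therefore not tested. MBD3 had no row under BPK-25 and 4.57 under DMSO, a value that 32.4% of DMSO MBD3 peaks reached. CTCF had a row at the site in neither treatment.

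The number of fragments over the summit (the pileup) was recovered from fold enrichment and p-value, and is given with a 95% Poisson interval that covers counting error only. TET1 had 173 fragments (148 to 201) under DMSO. TET2 had 53 (39.7 to 69.3) under BPK-25 and 145 (122 to 171) under DMSO. TET3 had 112 (92.2 to 135) under BPK-25 and 184 (158 to 213) under DMSO. MBD3 had 27 (17.8 to 39.3) under DMSO. To set lists of different depth side by side, the pileup was divided by the genome background of the list, the lowest local background found in it. On that scale TET1 had 93.6 under DMSO, TET2 50.6 under BPK-25 and 116 under DMSO, TET3 68.1 and 108, and MBD3 8.41 under DMSO. The 3 TET lines had similar values under DMSO, with overlapping counting intervals, and that of MBD3, measured with another antibody, was far lower.

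The ratio of BPK-25 to DMSO on this scale was 0.436 (0.312 to 0.602, counting error only) for TET2 and 0.627 (0.492 to 0.798) for TET3. By fold enrichment it was 0.393 and 0.499. The site was chosen for its high TET1 and TET2 values, which were those under DMSO, and such a choice favours a ratio below 1. The counting intervals do not cover this. For TET1 only a limit can be given, and neither it nor the limit for MBD3 below includes counting error. At the local background that the site had under DMSO, 1.84 times the genome background, a pileup of 14 would have been enough for a row in the BPK-25 TET1 list, which puts the ratio under 0.0854 if that background was the same under BPK-25. For MBD3, where 11 fragments would have been enough at a background of 1.6 times that of the genome, the limit is 0.51, so a level of up to that share of DMSO would give no row. For CTCF, at the same assumed background, the pileup needed was 11 under BPK-25 and 15 under DMSO, or 4.27 and 4.07 times the genome background. Whether the change differs between the 3 TET lines was not tested.

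**Figure D2:**
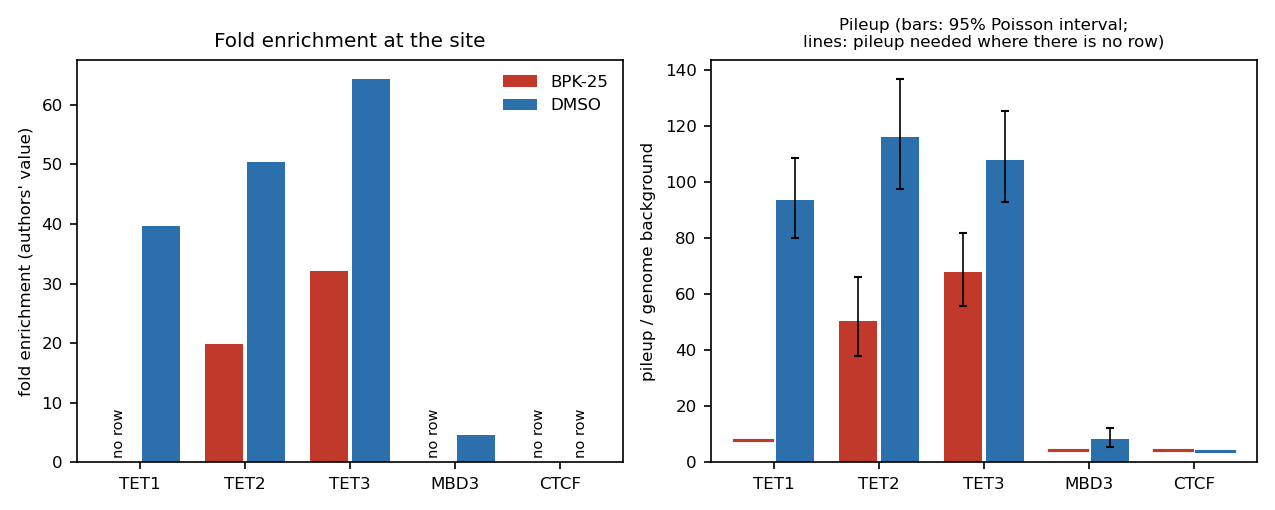
Fold enrichment (left) and pileup divided by the genome background (right) at the strongest TET site, by target on the horizontal axis, with BPK-25 in red and DMSO in blue. Error bars are 95% Poisson intervals for counting error; horizontal lines mark the pileup that would have been needed where a list has no row. The TET bars under DMSO reach 93.6 to 116 times the genome background.

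The local background at the site, which reflects the input, was low. It was 1.84 times the genome background for TET1 under DMSO, 1.65 for TET2 under BPK-25 and 1.52 under DMSO, 1.53 for TET3 under BPK-25 and 1.11 under DMSO, and 1.6 for MBD3 under DMSO. A value of 20 or more was taken as high, and peaks with such a background were left out of the ranking. Among the remaining 5915 TET1 peaks, 1177 TET2 peaks and 14087 TET3 peaks under DMSO, the site ranked 1 by -log10 q in each list, at 219, 208 and 285. It ranked 6 of 339 in the BPK-25 TET2 list, with a -log10 q of 54.3, and 3 of 13262 in the BPK-25 TET3 list, with 135. By fold enrichment over all peaks, it ranked 1 for TET3 in both treatments and for TET2 under DMSO, 4 for TET2 under BPK-25 and 2 for TET1 under DMSO. Peaks on chromosomes X and Y were ranked separately, and the ranks by -log10 q depend on leaving out peaks of high background. With these kept in, the site ranked 5 for TET1 under DMSO, 67 for TET2 under BPK-25 and 4 under DMSO, and 28 for TET3 under BPK-25 and 9 under DMSO.

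**Figure D3:**
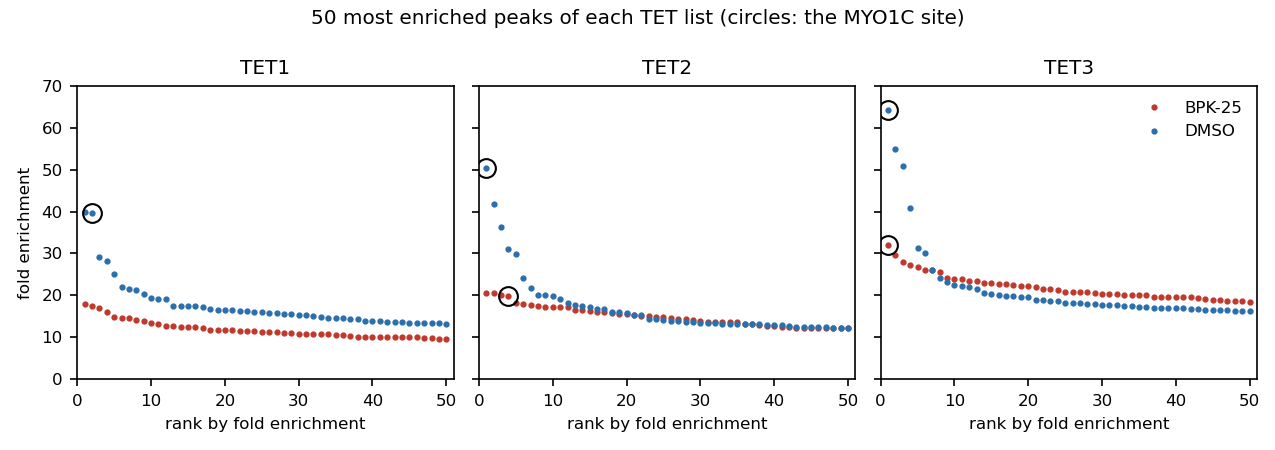
Fold enrichment of the 50 most enriched peaks of each TET list outside high local background, against their rank; red is BPK-25, blue DMSO, and circles mark the MYO1C site. The site stands at 64.3 and 50.4 at the head of the DMSO TET3 and TET2 lists by fold enrichment, and the BPK-25 TET1 list has no circle because it has no row there.

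The peaks next in rank give the scale. Next by -log10 q in the DMSO TET1 list was a peak on chromosome Y, 1274210 to 1275457, whose fold enrichment was 39.9, followed by chromosome X, 1324244 to 1325456, with 29.1. In the DMSO TET2 list they were on chromosome X, 1324263 to 1325472, with 36.4, and chromosome 18, 11688992 to 11689305, with 41.8. In the DMSO TET3 list the next in rank were again on chromosomes Y and X, with 55 and 50.8. The X and Y positions lie in the pseudoautosomal region, where both chromosomes carry the same sequence, so reads there can be placed on either and they are best read as 1 site. Outside high background, the 10 peaks of highest -log10 q of each line under DMSO all overlapped a peak of each other line. Over the whole DMSO lists, 14.4% of TET1 peaks overlapped a TET2 peak and 59.3% a TET3 peak. For TET2, 70.4% overlapped a TET1 peak, 78.7% a TET3 peak and 65.1% both. For TET3, the longest of the 3 lists, 24.9% overlapped TET1 and 6.72% TET2. In the BPK-25 TET2 list the peaks ranked 5 and 7 were on chromosome 19, 50620900 to 50621296 and 50615552 to 50615863, with fold enrichments of 17.2 and 15.9, below the 19.8 of the MYO1C site.

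CTCF had no row at the site, whereas most TET peaks overlapped one. Over the whole DMSO lists, a CTCF peak was overlapped by 67.6% of the peaks of TET1, 67.1% of those of TET2 and 58.1% of those of TET3, and an MBD3 peak by 83.2%, 84.8% and 82.6%. A TET2 peak that overlapped both other TET lines and no CTCF peak, as at MYO1C, made up 20.1% of the DMSO TET2 list. Of the 10 highest peaks in each list, CTCF was listed at 3 for TET1, 2 for TET2 and 3 for TET3, and MBD3 at 9, 9 and 10. The nearest DMSO CTCF intervals lay 12733 bp below and 3607 bp above the TET2 interval. Under BPK-25 the nearest CTCF intervals were closer, 354 bp below, at 1371826 to 1372097, and 528 bp above, at 1373437 to 1373755. Those of MBD3 were 365 bp below and 553 bp above. The stretch between the flanking intervals was 1375 bp for MBD3 and 1339 bp for CTCF, the 5th longest of 23 and the 6th longest of 21 such gaps within MYO1C (medians 585 and 694 bp), so gaps of that length were not rare in the gene.

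Most DMSO TET1 peaks, like the one in MYO1C, had no counterpart under BPK-25. Of all DMSO TET1 peaks, 4.59% overlapped a BPK-25 TET1 peak, against 24.7% for TET2 and 31.9% for TET3. Of the 10 DMSO TET1 peaks of highest -log10 q outside high background 2 did, and of the highest 100, 53. Among the 803 DMSO TET2 peaks that overlapped both other TET lines, 27.1% overlapped a TET1 peak, 32.3% a TET2 peak and 82.9% a TET3 peak under BPK-25. A row for TET2 and TET3 without one for TET1 under BPK-25, as at MYO1C, was found for 9.46% of these 803 peaks. The BPK-25 TET1 list is short, with 447 peaks against 5951 under DMSO, and 34 against 391 on chromosome 17, and its peak nearest to the site was 5811090 bp above it.

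The other TET rows of the window were weak and were listed only under DMSO. TET1 had a site at 1360223 to 1360486 with a fold enrichment of 4.24, and TET3 one at 1360275 to 1360497 with 3.47. Their summits, 1360372 and 1360363, lie outside MYO1C on its low-coordinate side, where RefSeq places CRK, the gene of an SH2 and SH3 adaptor protein, as the neighbouring gene (order of genes from GRCh38.p14). Neither overlapped a peak of TET2, MBD3 or CTCF. TET3 had a further site at 1390097 to 1390566 with 4.08, on the start side of MYO1C, which overlapped MBD3 in both treatments and CTCF under BPK-25. Together with the strongest site this accounts for all 8 TET rows: none for TET1, 1 for TET2 and 1 for TET3 under BPK-25, and 2, 1 and 3 under DMSO. Of the DMSO sites, 0 of 2 for TET1, 1 of 1 for TET2 and 1 of 3 for TET3 overlapped a BPK-25 site of the same target.

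**Figure D4:**
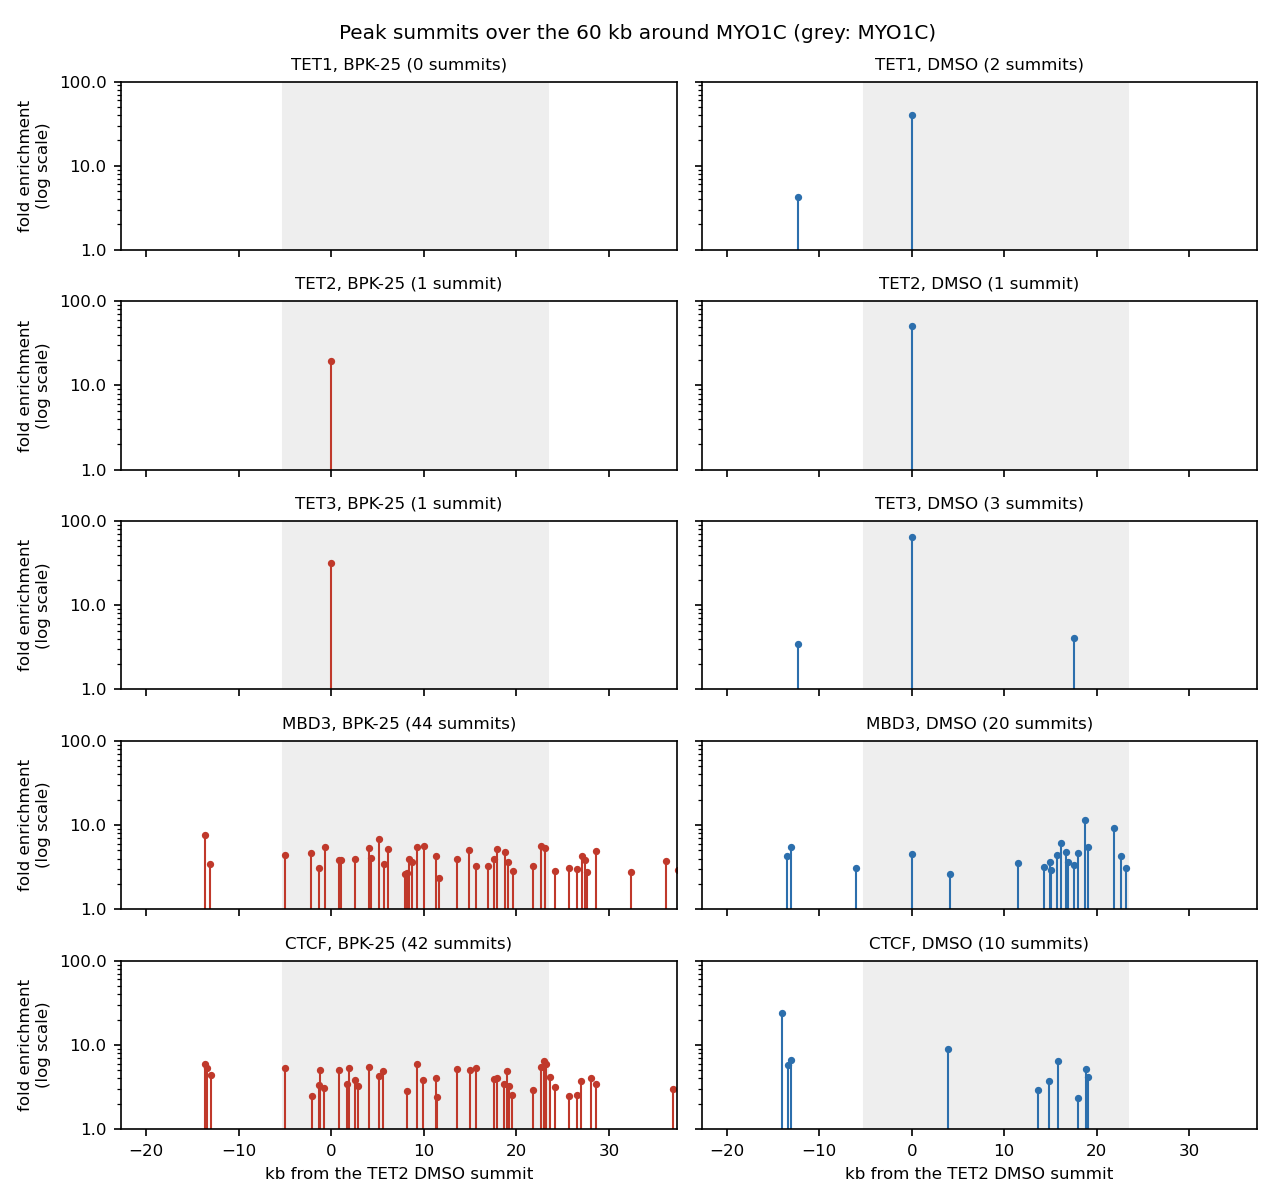
Fold enrichment (vertical axis, log scale) of every summit in the 60 kb window, by target (rows) with BPK-25 on the left and DMSO on the right; the horizontal axis is the distance in kb from the TET2 DMSO summit and grey marks MYO1C. TET lists hold 0 to 3 summits each, whereas MBD3 and CTCF hold 44 and 42 under BPK-25 and 20 and 10 under DMSO.

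MBD3 and CTCF sites were more numerous under BPK-25 across the locus. Their median and highest fold enrichments were lower than under DMSO, most of all the highest of CTCF. MBD3 had 34 sites under BPK-25, with a median fold enrichment of 3.99 (2.77 to 7.71), and 14 under DMSO, with 4.41 (2.61 to 11.4). CTCF had 31 under BPK-25, with 4.08 (2.46 to 5.92), and 7 under DMSO, with 5.22 (2.35 to 23.9). The medians over the whole lists were 3.77 and 3.65 for MBD3 and 3.71 and 11.3 for CTCF. Of the 7 DMSO CTCF sites, 1 was above its list's median. A stretch of chromosome 17 as long as the window held a median of 7 BPK-25 and 2 DMSO sites for MBD3, and 7 and 3 for CTCF. Of the DMSO sites, 11 of 14 for MBD3 (61.4% over its list) and 7 of 7 for CTCF (39.2%) overlapped a BPK-25 site of the same target. With summits within 100 bp required, 5 for MBD3 and 4 for CTCF had one. Of the BPK-25 sites, 22 of 34 for MBD3 (78.2% over its list) and 24 of 31 for CTCF (83.3%) overlapped no DMSO site. The labels give the parental cells a single set of inputs per treatment, which both targets share.

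The strongest CTCF site of the window lay outside MYO1C on the low-coordinate side. It had a fold enrichment of 23.9 under DMSO, at 1358532 to 1359718, with the summit at 1358719. The overlapping BPK-25 interval, 1358840 to 1359848, does not reach that summit, which thus had no BPK-25 row. Its own highest summit, at 1359025 and 306 bp away, had 5.92. MBD3 was listed there with 7.71 under BPK-25 and 5.55 under DMSO, at separate summits, 1359003 and 1359640. Near the DMSO summit, a further BPK-25 MBD3 site, 1359556 to 1359818 with its summit at 1359630, had 3.49. The DMSO MBD3 row nearest to the BPK-25 summit, at 1359213, had 4.28. The site with 7.71 was the strongest MBD3 site of the window under BPK-25. Inside MYO1C the strongest CTCF site under DMSO, 1376516 to 1376931, had 5.53 in the overlapping BPK-25 interval and 8.97 under DMSO. The DMSO summit there, 1376646, lies outside the BPK-25 interval, 1376676 to 1376990, and so had no BPK-25 row. The site at 1388267 to 1388574 had 5.32 under BPK-25 and 6.49 under DMSO. At the 3 weakest DMSO sites the order was the other way round. CTCF had 5.2 under BPK-25 against 2.95 under DMSO at 1386169 to 1386380, 5.09 under BPK-25 against 3.69 under DMSO at 1387494 to 1387786, and 4.08 under BPK-25 against 2.35 under DMSO at 1390572 to 1390737. The remaining site, 1391391 to 1391853, had 4.95 under BPK-25 and 5.22 under DMSO, at summits 213 bp apart. Near the DMSO summit, 1391478, the BPK-25 row had 3.46. Near the BPK-25 summit, 1391691, the DMSO row had 4.19. By -log10 q the highest BPK-25 CTCF site, 17.6, was at the high-coordinate end of the gene, 1395158 to 1396039, where CTCF had no DMSO row. It was followed by 1386113 to 1386511, with a fold enrichment of 5.2, and 1381772 to 1382134, with 5.9.

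The 2 strongest MBD3 sites under DMSO lay on the start side of MYO1C. At 1391206 to 1391978 MBD3 had 4.77 in the overlapping BPK-25 interval and 11.4 under DMSO, and CTCF was listed in both treatments. At 1394180 to 1394776 MBD3 had 3.25 under BPK-25 and 9.15 under DMSO, and CTCF was listed under BPK-25 alone. On the scale of pileup over genome background these sites had 8.18 and 11.7 under BPK-25 against 25.5 and 20.2 under DMSO. Some weaker MBD3 sites of the gene went the other way on that scale, with 14.4 under BPK-25 against 5.91 under DMSO at 1387503 to 1387857 and 15.2 under BPK-25 against 8.09 under DMSO at 1395716 to 1395930. Next by -log10 q under DMSO was 1390081 to 1390814, with fold enrichments of 5.26 under BPK-25 and 4.72 under DMSO. Under BPK-25 the highest MBD3 sites inside the gene by -log10 q were 1382547 to 1382825, with 5.7 and no DMSO row, and 1395274 to 1396023, with 5.32, which overlapped DMSO sites of 4.24 and 3.12. MBD3 had 3 DMSO sites with no BPK-25 row, at 1366540 to 1366736, at 1386910 to 1387106 and at the strongest TET site.

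Most CTCF sites of the locus overlapped an MBD3 site in both treatments, and most MBD3 sites a CTCF site under BPK-25. Under BPK-25, 28 of 31 CTCF sites overlapped an MBD3 site (69% over the list), and 29 of 34 MBD3 sites a CTCF site (69.1%). Under DMSO, 6 of 7 CTCF sites overlapped MBD3 (36.9% over the list) and 6 of 14 MBD3 sites CTCF, a share close to that of the list (43.3%). Above the gene, where RefSeq places INPP5K, the gene of an inositol polyphosphate 5-phosphatase, as the nearest named gene, MBD3 and CTCF each had 8 sites within the window under BPK-25, and no target had one there under DMSO. At its edges, the BPK-25 MBD3 site at 1409991 to 1410169 (fold enrichment 2.9) lies across the boundary, and the next one outside, at 1411916 to 1412486, had 6.23. The strong CTCF site at 1418939 to 1419347, with 31.1 under DMSO, is also outside.

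A small set of peaks shared the pattern of the MYO1C site over the lists, that is, a row for TET1 under DMSO, for TET2 and TET3 in both treatments and for MBD3 under DMSO, with none for TET1 or MBD3 under BPK-25 or for CTCF. With the MYO1C site included, 19 of the 1233 DMSO TET2 peaks (1.54%) had it, all outside high background. The X and Y copies, best read as 1 site, are counted apart in this number. After the MYO1C site, those of highest DMSO TET2 -log10 q were the X and Y copies, at 1324263 to 1325472 and 1274221 to 1275392. That order favours peaks with high TET2 values under DMSO. The X copy had TET2 fold enrichments of 20.5 under BPK-25 and 36.4 under DMSO, and TET3 values of 28 and 50.8. The Y copy had TET2 values of 16.3 and 31.2 and TET3 values of 27.2 and 55. Next came chromosome 1, 45477570 to 45477962, with TET2 values of 5.7 under BPK-25 and 19.8 under DMSO, and chromosome 11, 20044130 to 20044516, with 7.82 and 16.8. The last named by the rule was chromosome 7, 4456116 to 4456463, with 7.19 and 13.2. Under DMSO, TET1 had 29.1 and 39.9 at the X and Y copies and 14.5 to 19.2 at the other 3. MBD3 values at these 5 peaks were between 3.63 and 7.8 under DMSO, and that of the MYO1C site was 4.57.

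**Figure D5:**
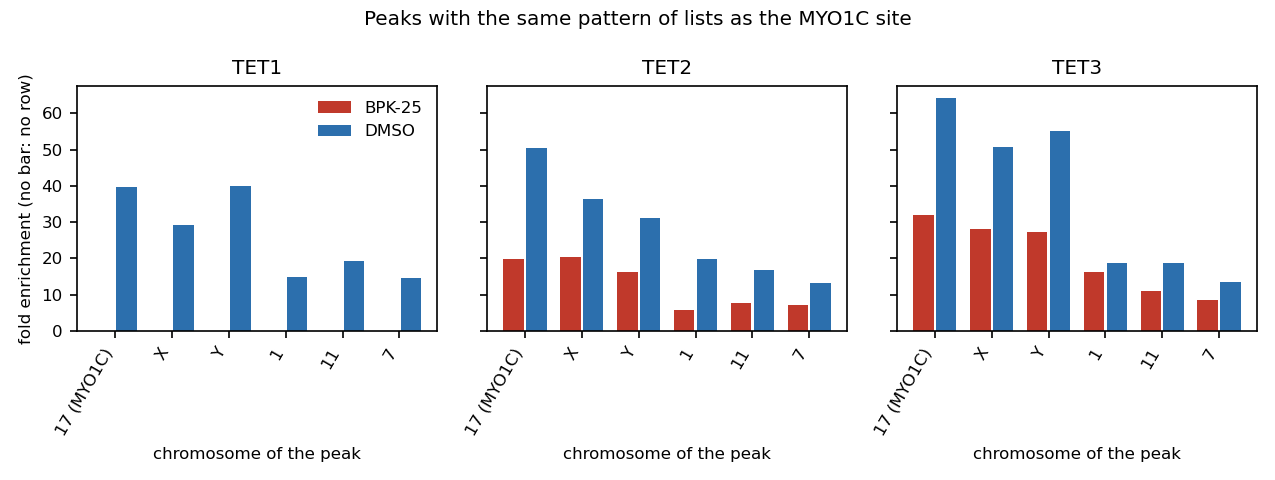
Fold enrichment in the TET1, TET2 and TET3 lists of the MYO1C site and the 5 other peaks named for the same pattern of lists, labelled by chromosome; BPK-25 is red, DMSO is blue, and a missing bar means that the list has no row. At each of the 6 peaks the BPK-25 bar is lower than the DMSO bar or missing. For TET1 the missing bar follows from how the peaks were chosen. For TET2 the choice favours a lower BPK-25 bar, because the peaks were picked for high TET2 values under DMSO.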

How the data were processed

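Peak lists in narrowPeak form were used as deposited, 1 per target and treatment. The submitters' processing notes name the build hg19 and FastQC 0.11.7, Bowtie2 2.3.4, SAMtools 1.9, MACS2 2.1.2 and bedtools 2.25.0, without parameters. The deposited lists give, per summit, the fold enrichment (a ratio), a p-value and a q-value, both as −log10 (the lowest −log10 q was 1.3, a q of 0.05), and the summit's offset. The score in the deposited lists, about 10 times −log10 q, was not used further.

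Overlapping or touching rows were merged into sites, with the values of the summit of highest −log10 q, and coordinates are 1-based. Lists were matched by 1 bp of overlap. Pileup and local background were solved from fold enrichment and p-value; in every list, 100% of pileups under 200 fragments were whole numbers to within 0.02. The lists hold no read totals. The genome background, taken as a stand-in for depth, was 1.75 and 1.85 fragments for TET1 under BPK-25 and DMSO, 1.05 and 1.25 for TET2, 1.65 and 1.7 for TET3, 2.57 and 3.21 for MBD3, and 2.58 and 3.68 for CTCF. Recovery and overlap were tested on simulated data. Intervals are exact Poisson, or binomial for ratios, and cover counting error only; PCR copies are not independent molecules. Python 3.11.15, numpy 2.4.6 and scipy 1.17.1 were used.

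The named sites are those in TET lists, the 3 strongest CTCF and MBD3 sites per list, those nearest the strongest TET site, its neighbours in rank, and the 5 strongest peaks of the same list pattern. Other sites were named after their values were seen. Members and lists were chosen with earlier results of these data known. Class I myosin genes other than MYO1C and exon positions were not analysed here, as no hg19 annotation was used.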

Additional observations from a re-analysis of the deposited data

How the results depend on the processing

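No paired analysis was possible because each list pools the replicates of its group. With a -log10 q of at least 5, the TET lists held 5 sites in the window in place of 8 and MBD3 20 in place of 34 under BPK-25 and 9 in place of 14 under DMSO. With at least 10, the counts were 5 for TET, 7 and 5 for MBD3, and 8 and 4 for CTCF (31 and 7 otherwise), so the excess of BPK-25 sites narrowed. With rows within 500 bp merged, MBD3 had 21 and 7 sites and CTCF 19 under BPK-25. DMSO MBD3 sites with a BPK-25 site numbered 5 with summits within 100 bp, 6 at a -log10 q of 5 and 2 at 10, in place of 11; for CTCF there were 4 with summits within 100 bp and 2 at a -log10 q of 10, in place of 7. The strongest TET site kept its row in the same 5 TET lists at both limits. Its rank by fold enrichment was 2 for TET1 under DMSO, and 4 and 1 for TET2 and TET3 under BPK-25. With high local background kept in, its rank by -log10 q was 5 for TET1, 4 for TET2 and 9 for TET3 under DMSO, and 67 for TET2 and 28 for TET3 under BPK-25. The other 32 of 56 alternatives, among them chromosomes 1 to 22 and X only and the BPK-25 to DMSO ratios at the site, stayed within 1.5 times, within the counting interval or at the same rank. Depth limits what a missing row means: at the site a row needed about 14 fragments for TET1 and 11 for MBD3 under BPK-25, so fewer could have gone unlisted.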
